A study of Mus musculus with 2 samples.

Results

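DNase-seq reads the accessible part of a genome: nuclei are treated with the nuclease DNase I, and cleavage sites cluster in a peak wherever regulatory DNA is open. Inside most open peaks, short stretches are cut less than their surroundings; such a stretch is called a footprint and is commonly read as a place where a protein sat on the DNA. Footprint-free peaks are peaks that were open in both libraries and held no footprint in either. They were chosen from the peak list of replicate 1: autosomal peaks that shared at least 1 bp with a replicate 2 peak, had a maximum cleavage density at or above the list median of 1.30, and overlapped no footprint of the replicate 1 list and none of the replicate 2 list. The rule kept 517 of 24006 strong shared peaks, which is 2.15% (95% Wilson interval 1.98 to 2.35), out of 50261 peaks in the whole replicate 1 list. Of the remaining strong shared peaks, 22460 had a footprint in both lists, 643 only in the replicate 2 list and 386 only in the replicate 1 list. Density, sharing and the footprint lists chose the peaks, so these measures are given as a description.

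The tissue was frontal cortex of male B6CASTF1/J mice, a cross of C57BL/6J and CAST, at 10 days of age, and 2 biological replicates formed the only group. A label note of 3 males goes with each sample, and both samples carry the same donor entry, so separate animals are not stated beyond the replicate numbers. With 1 group there was no condition to compare and no test across samples. Regions of a library are not replicates, and every comparison below describes these 2 libraries, with intervals that cover counting error only. Densities moved in whole steps (tolerance 0.05 of a step), and the step of replicate 1 was 1.65 times that of replicate 2. If the step shrinks in proportion to depth, the relative depth of replicate 2 was 1.65, but this was not tested. Absolute depth is not given in the files. As a check of the tissue label, 10 of 12 pan-neuronal and 10 of 14 excitatory neuron genes had a strong shared peak at a promoter. So did 5 of 14 interneuron, 6 of 12 astrocyte, 4 of 11 oligodendrocyte lineage, 2 of 12 microglial, 2 of 10 endothelial, 1 of 10 mural and fibroblast and 2 of 8 choroid plexus and ependymal genes. Of all autosomal protein-coding genes 53.6% had such a peak, as did 12 of 12 housekeeping and 15 of 15 immediate early genes.

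Most mammalian promoters of widely used genes lie in CpG islands, stretches rich in G and C in which the CpG dinucleotide has been kept. Open chromatin at such a promoter centres on the transcription start site (TSS), where general factors such as SP/KLF, NRF1, ETS and NFY proteins bind close together, and it often runs on into the first exon and intron. DNase I cuts some short sequences more readily than others, and a protein that stays on DNA only briefly may leave little protection, so a peak without a footprint is not known to be free of protein.

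The sequences below show the forms that footprint-free peaks took. All come from the GRCm38.p6 genome, the assembly of the mm10 files, and are written 5′ to 3′ on the plus strand unless stated. The 4 narrowest among the 10 densest peaks are shown first because in them a high replicate 1 density stood in very few bases. Capitals mark the peak itself, and lower case its flanks. The windows are chr10:80622414-80622514, chr7:19228290-19228390, chr19:60581041-60581141 and chr11:104231375-104231475.
Csnk1g2: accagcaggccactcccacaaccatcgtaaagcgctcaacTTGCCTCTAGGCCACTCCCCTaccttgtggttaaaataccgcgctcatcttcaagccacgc
Opa3: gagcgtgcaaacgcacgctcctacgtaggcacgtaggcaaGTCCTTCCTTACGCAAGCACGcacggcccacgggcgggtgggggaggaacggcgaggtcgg
Cacul1: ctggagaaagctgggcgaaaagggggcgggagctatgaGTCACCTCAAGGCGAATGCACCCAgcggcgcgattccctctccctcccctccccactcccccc
Mapt: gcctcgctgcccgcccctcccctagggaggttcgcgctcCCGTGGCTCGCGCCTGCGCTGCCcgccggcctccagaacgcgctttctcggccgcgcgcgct

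Next are the middle 200 bp of the peak at Nlgn2, shown as an example of a broad peak inside a transcript near its start. Its CpG ratio, the observed over the expected number of CpGs, was 0.540, below the footprint-free median given further on. Capitals mark CpG dinucleotides, of which the window, chr11:69837040-69837239, holds 19.
Nlgn2: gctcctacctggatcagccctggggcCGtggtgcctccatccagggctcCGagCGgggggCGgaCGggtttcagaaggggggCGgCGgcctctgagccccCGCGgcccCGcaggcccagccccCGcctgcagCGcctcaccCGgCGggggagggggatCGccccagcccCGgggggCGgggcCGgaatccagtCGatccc

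A distal example is the peak upstream of Ptma, in capitals within chr1:86525019-86525119. It was the densest footprint-free peak over 1 kb from any TSS whose 32-mers all occur once in the assembled chromosomes.
Ptma: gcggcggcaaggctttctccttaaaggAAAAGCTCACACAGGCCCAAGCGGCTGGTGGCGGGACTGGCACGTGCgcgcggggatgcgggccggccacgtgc

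The last form is repeated sequence. The window chr17:3080689-3080838, inside a footprint-free peak of the Pisd-ps2 gene, is set beside its best other placement, chr11:3127675-3127824, written on the minus strand. The 2 stretches had 148 of 150 bases in common, and capitals mark the 2 bases that differ.
Pisd-ps2: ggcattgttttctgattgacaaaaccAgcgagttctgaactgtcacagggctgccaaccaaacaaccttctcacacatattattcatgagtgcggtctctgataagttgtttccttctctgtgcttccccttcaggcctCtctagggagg
Chromosome 11 copy: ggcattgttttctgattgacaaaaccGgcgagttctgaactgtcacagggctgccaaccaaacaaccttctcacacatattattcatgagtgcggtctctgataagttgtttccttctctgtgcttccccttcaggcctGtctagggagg

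For contrast, the middle 150 bp of 3 peaks footprinted in both libraries are given, each the nearest in replicate 1 density to a footprint-free peak shown above: Pank3 to Csnk1g2, Mcm9 to Opa3 and D030034A15Rik to Mapt. Capitals mark bases inside a footprint of at least 1 library. The windows are chr11:35769359-35769508, chr10:53630029-53630178 and chr10:39171847-39171996, and footprints covered 53, 87 and 46 of their 150 bases.
Pank3: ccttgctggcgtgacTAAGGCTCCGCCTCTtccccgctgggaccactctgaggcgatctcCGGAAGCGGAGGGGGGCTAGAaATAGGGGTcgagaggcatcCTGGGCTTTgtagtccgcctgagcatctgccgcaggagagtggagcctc
Mcm9: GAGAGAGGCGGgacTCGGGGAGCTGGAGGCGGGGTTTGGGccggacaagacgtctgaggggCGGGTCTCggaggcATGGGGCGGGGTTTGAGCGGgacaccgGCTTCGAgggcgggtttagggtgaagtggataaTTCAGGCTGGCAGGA
D030034A15Rik: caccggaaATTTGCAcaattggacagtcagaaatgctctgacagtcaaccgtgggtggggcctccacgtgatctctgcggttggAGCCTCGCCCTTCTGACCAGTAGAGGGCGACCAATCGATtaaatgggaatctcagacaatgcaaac

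In these windows the footprints of D030034A15Rik covered a whole CTCF match and a whole CCAATC, the NFY motif. A match did not need a footprint over it: the 23 bp Mapt peak held a whole NRF1 match (GCGCNTGCG) and the Ptma peak a whole CACGTG, and neither library listed a footprint on them.

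By maximum density, footprint-free peaks lay at the low end of the strong range. Their median density was 1.56 in replicate 1 and 1.14 in replicate 2, against 2.52 and 1.82 for peaks footprinted in both libraries. In replicate 2, whose density the rule did not use, 387 of 517 (74.9%) reached that list's own median, against 91.2% of footprinted peaks. The replicate 2 value is the maximum of the densest replicate 2 peak that shared at least 1 bp. For footprint-free peaks that peak had a median width of 272 bp, against 179 bp in replicate 1. Its maximum can lie outside the footprint-free bases, and how often it did was not tested. The smoothed peak height of footprint-free peaks, a second signal column of the replicate 1 list, was not lower: its median was 1.23 (1.19 to 1.25) against 1.17 (1.15 to 1.18). In the lowest of 4 quartiles of maximum density, which held 323 of the 517, it was 1.13 against 0.622. By decile of density, the share without a footprint was 6.39% (5.49 to 7.43) in the lowest decile of strong shared peaks, 4.88% in the second, 1.87% in the fifth and 0.0834% (0.0229 to 0.304) in the tenth. Only 2 of 2398 peaks in the top decile held none: the one at Csnk1g2 and 1 at Pisd-ps2.

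Footprint-free peaks were often narrow. The median footprint-free peak measured 179 bp (156 to 198), against 302 bp (301 to 303) for footprinted peaks, and 217 of 517 (42.0%) were narrower than 150 bp, against 2.36%. Among strong shared peaks of 21 to 50 bp, 71 of 156 (45.5%, 37.9 to 53.3) held no footprint. The share was 19.9% at 51 to 100 bp, 14.7% at 101 to 150 bp, 9.97% at 151 to 200 bp and 2.08% at 201 to 250 bp, and lay between 0.824% and 1.16% in the wider classes. A short interval has fewer bases in which a footprint can fall, and the part of that in the shares was not tested. Within each quartile of density, the footprint-free peaks were also the narrower ones: 202 against 301 bp in the lowest quartile and 170 against 301 bp in the next.

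**Figure D1:**
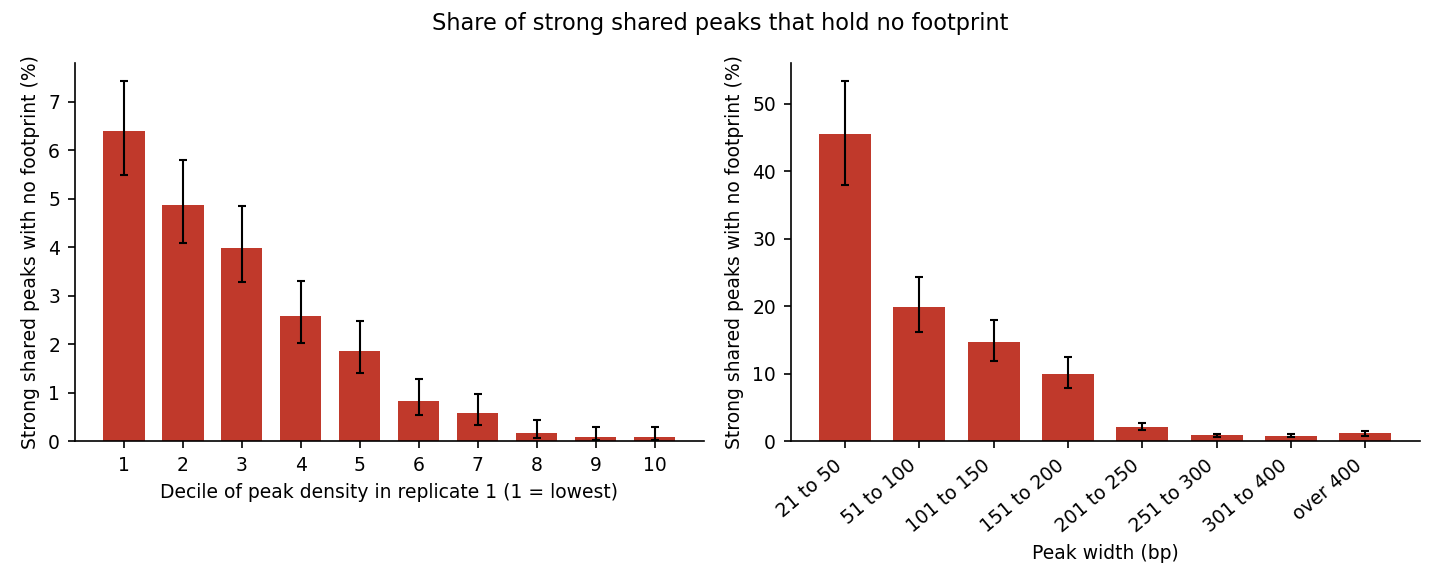
Share of strong shared peaks without a footprint (percent, vertical axes) by decile of replicate 1 peak density (left, 1 the lowest) and by peak width in bp (right). Bars are shares and lines 95% Wilson intervals: the share is 6.39% in the lowest density decile and 0.0834% in the highest, and 45.5% at 21 to 50 bp against 0.824% at 301 to 400 bp.

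**Figure D2:**
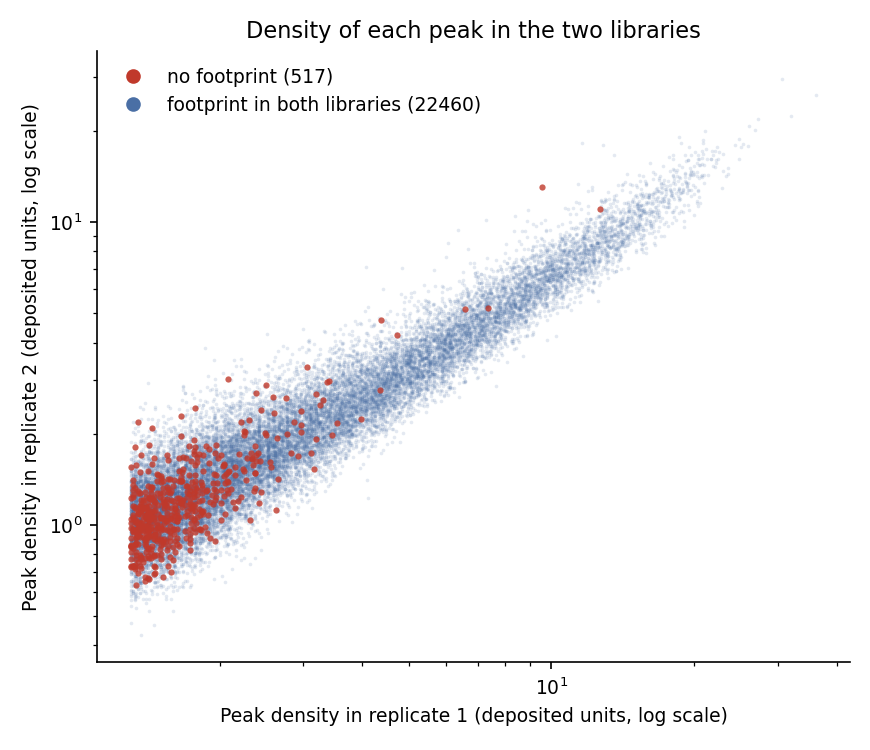
Maximum cleavage density of each peak in replicate 1 (horizontal, log scale) and of its densest overlapping peak in replicate 2 (vertical, log scale), for 517 footprint-free peaks (red) and 22460 peaks footprinted in both libraries (blue). The red points crowd at the low end, with medians of 1.56 and 1.14, and lie inside the blue cloud apart from a few high ones.

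The threshold itself marks no gap. The 3 peaks just inside it, at Pde7a, Ogfrl1 and Ahsa2, had a replicate 1 density of 1.30 each and replicate 2 densities of 0.771, 0.843 and 0.979. The 3 shared footprint-free peaks just below it, at Kmt2e, Tmem229a and Rsph1, had 1.29 each and 1.04, 1.02 and 0.946.

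Most footprint-free peaks stood beside a stronger peak. The nearest other peak of the replicate 1 list was a median of 157 bp away (145 to 164), against 1947 bp (1741 to 2117) for footprinted peaks, and 114 of 517 touched or overlapped it. For 412 of 517 (79.7%, 76.0 to 82.9) the nearest peak lay within 500 bp and had the higher density, against 11.0% (10.6 to 11.4) of footprinted peaks. That neighbour held footprints in 397 of these 412, and in 2466 of the 2475 such cases among footprinted peaks. A footprinted neighbour was therefore not particular to footprint-free peaks. The neighbours had a median density of 4.90 and a median of 10 footprints, against 1.55 and 5 for the neighbours of footprinted peaks. Here and below, footprint counts of a neighbour add the replicate 1 and replicate 2 lists, so a site in both lists is counted in each. The hotspots around footprint-free peaks, the wider domains of raised cleavage, had a median of the authors' highest −log10 FDR of 51.4 in replicate 1 and 45.2 in replicate 2, against 17.2 and 15.4.

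Footprints lay close by, outside the peak. The nearest one lay a median of 196 bp from the peak edge in replicate 1 and 167 bp in replicate 2. In 115 of 517 (22.2%) a footprint of at least 1 library came within 50 bp, in 393 (76.0%) within 250 bp, and 23 (4.45%) had none within 1 kb.

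Position and width each went with the lack of footprints. Among strong shared peaks with a stronger nearest peak within 500 bp, 199 of 925 (21.5%, 19.0 to 24.3) of those under 150 bp and 213 of 2591 (8.22%, 7.22 to 9.34) of the wider ones were footprint-free. Without such a neighbour the counts were 18 of 100 (interval 11.7% to 26.7%) and 87 of 20390 (0.427%, 0.346 to 0.526). The intervals of the 2 narrow classes overlapped, and those of the 2 wide classes did not.

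**Figure D3:**
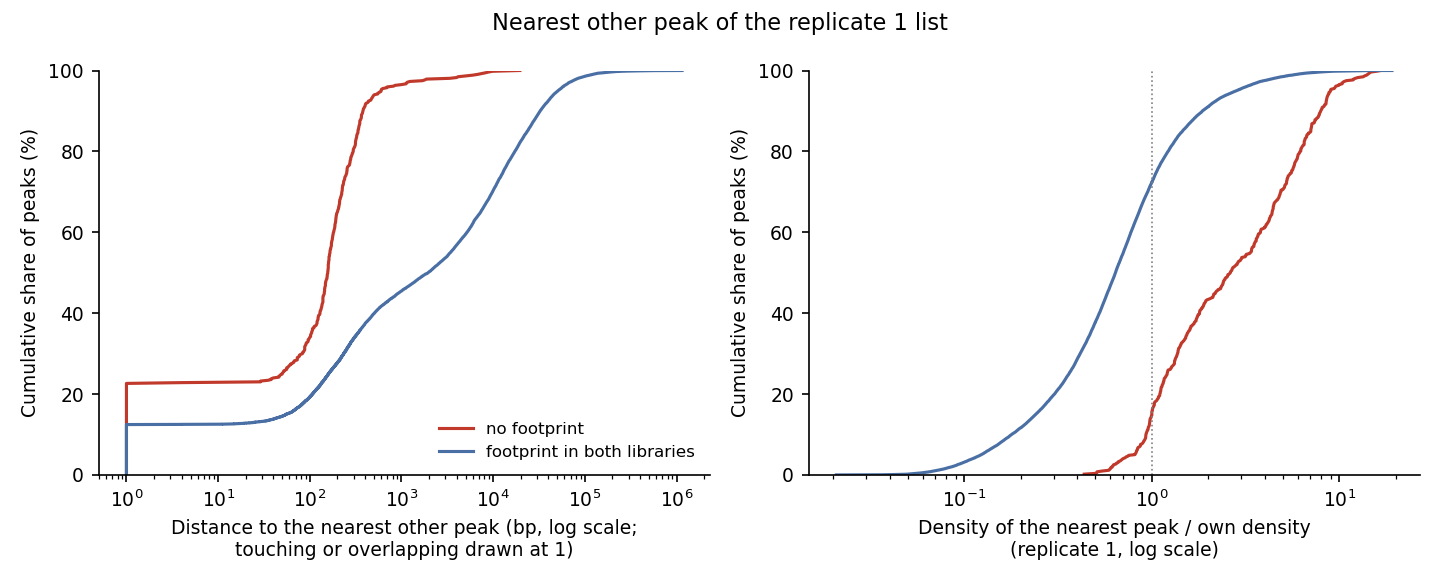
Cumulative share of peaks (percent, vertical axes) by distance to the nearest other replicate 1 peak (left, bp, log scale, touching peaks drawn at 1) and by the density of that peak divided by the peak's own (right, log scale, dotted line at equality). Footprint-free peaks are red and peaks footprinted in both libraries blue: the median distance is 157 bp against 1947 bp, and most of the red curve lies right of equality.

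The 4 narrow peaks printed first each touched or overlapped a neighbour, which was the denser of the pair at Csnk1g2, Opa3 and Mapt and the weaker at Cacul1. Their replicate 2 densities belong to wider overlapping peaks, of 227 bp at Csnk1g2, 68 bp at Opa3, 399 bp at Cacul1 and 198 bp at Mapt. How much of those densities stood in the narrow stretches themselves was not tested. The peak at Csnk1g2, a casein kinase gene, is chr10:80622454-80622474, 21 bp wide and 374 bp upstream of the TSS, with a density of 12.7 in replicate 1 and 11.0 in replicate 2. It overlapped by 8 bp a neighbour of density 14.1, and the nearest footprint of each library began 1 bp from its edge. The 21 bp peak at Opa3, which encodes a mitochondrial membrane protein, is chr7:19228330-19228350 in an untranslated exon part, 6 bp inside the transcript, and had densities of 7.35 and 5.20 beside a neighbour of 14.1 with 13 footprints. The 24 bp peak at Cacul1, a cullin-related cell-cycle gene, is chr19:60581079-60581102 and had 6.58 and 5.17 beside a 27 bp neighbour of 6.44. At Mapt, the gene of the microtubule protein tau, the 23 bp peak chr11:104231414-104231436 had 3.98 and 2.23, abutted a peak of 4.80 with 12 footprints, and lay 35 bp inside the transcript.

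The other peaks among the 10 densest near coding genes had replicate 1 densities from 3.30 to 4.35. They lay at Cblb, a ubiquitin ligase gene, Impact, a translational regulator of neurons, Eed, a Polycomb subunit, Dus3l, a tRNA-modifying enzyme, Psmg4, a proteasome assembly factor, and Ovca2, a hydrolase. The Impact peak, at 133 bp, and the Eed peak, at 74 bp, were the widest of these, and the Eed, Dus3l, Psmg4 and Ovca2 peaks abutted their neighbour.

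Promoters held nearly all of them. Of 517 footprint-free peaks, 458 (88.6%, 85.6 to 91.0) had their midpoint within 1 kb of an annotated TSS, against 62.1% (61.4 to 62.7) of peaks footprinted in both libraries and 47.7% of the whole list. In the lowest quartile of density the shares were 88.2% (84.3 to 91.3) against 34.3% (33.0 to 35.6). Introns held 26 of the remaining peaks, intergenic DNA 19 and exons 14.

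At promoters most of the peaks had their midpoint inside the transcript, past the TSS. The midpoint was downstream of the nearest TSS in 312 of 458 (68.1%, 63.7 to 72.2), against 34.0% (33.2 to 34.8) of footprinted promoter peaks, and the median position was 122.5 bp downstream against 24 bp upstream (a value of -24). The window from 100 to 600 bp downstream held 46.9% (42.4 to 51.5) against 10.1% (9.57 to 10.6), and the 200 bp around the TSS held 25.8% against 65.5%. With both groups limited to promoter peaks that had a stronger neighbour within 500 bp, the downstream shares were 67.9% (63.0 to 72.4) of 377 and 47.1% (44.9 to 49.2) of 2046. Among peaks at least 150 bp wide they were 72.5% (66.8 to 77.5) and 33.6% (32.8 to 34.4).

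Gene parts differed accordingly. Coding exons held the midpoint of 84 of 517 footprint-free peaks (16.2%, 13.3 to 19.7), against 4.02% (3.77 to 4.29) of footprinted peaks, and introns held 40.2% against 31.2%. In the lowest density quartile the intron shares were 42.1% (36.8 to 47.6) and 44.5% (43.1 to 45.9), with overlapping intervals. Untranslated exon parts held 21.3% against 19.5%, with overlapping 95% intervals. Only 13.0% lay outside genes, against 39.8%.

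**Figure D4:**
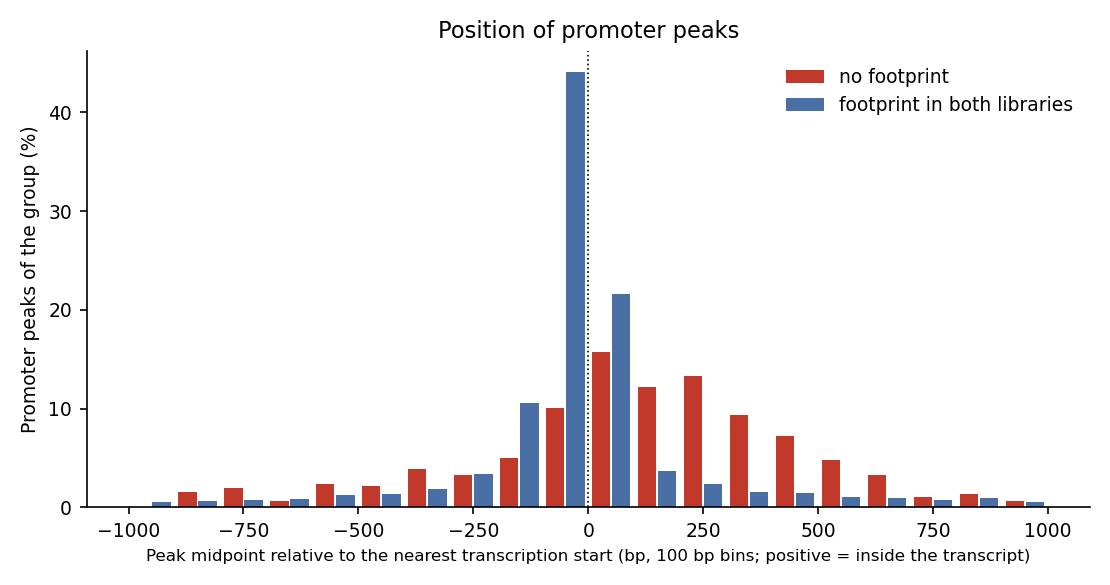
Position of promoter peak midpoints relative to the nearest TSS (bp, 100 bp bins, positive inside the transcript), as a percentage of the promoter peaks of each group: 458 footprint-free peaks (red) and 13939 peaks footprinted in both libraries (blue). The blue bars pile up on both sides of the TSS, and the red bars spread downstream, with a median at 122.5 bp.

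In base composition footprint-free peaks were richer in G and C. Median GC content was 67.3% (66.2 to 68.5), against 60.5% (60.3 to 60.6) for footprinted peaks and 56.5% for the whole list, and in the lowest quartile of density 68.1% against 55.0%. The observed over expected CpG ratio had a median of 0.788 (0.746 to 0.817) against 0.657 (0.649 to 0.664). Within promoters the groups were closer: among promoter peaks, 76.2% of footprint-free and 78.4% of footprinted peaks had both a GC content of at least 50% and a CpG ratio of at least 0.6, while 81.4% and 73.6% had a GC content of at least 60%. In the highest density quartile, which held 5 footprint-free peaks, the order was turned round, with 57.1% against 64.9%.

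**Figure D5:**
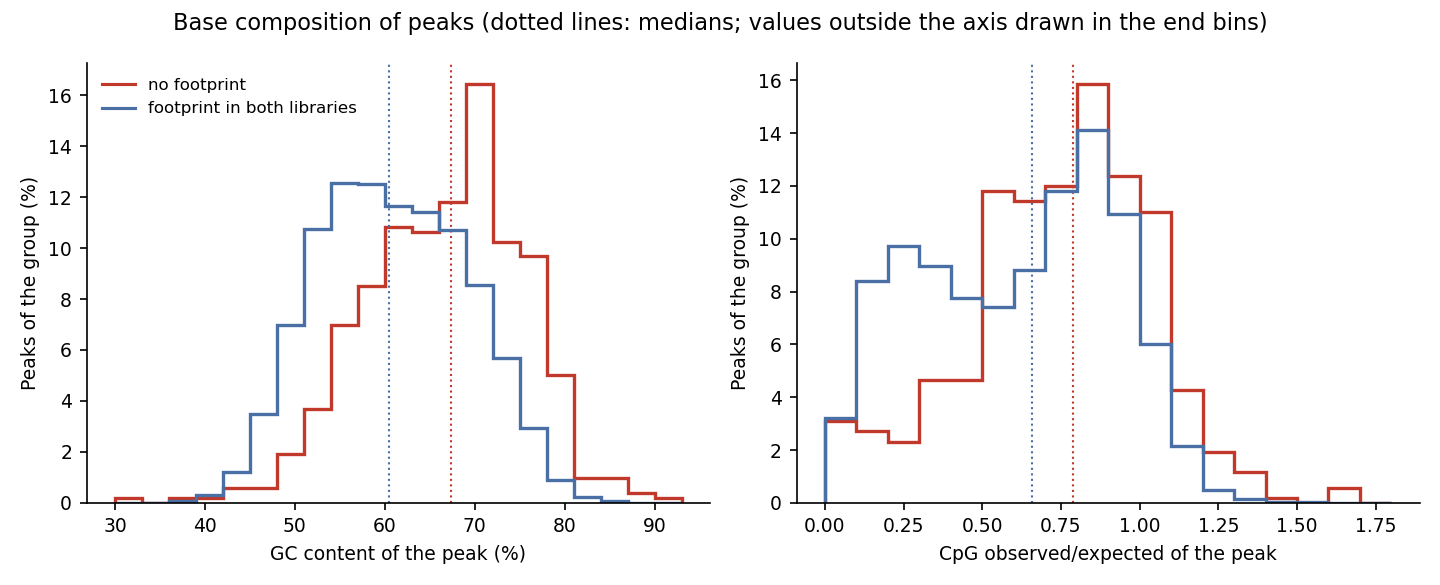
GC content (left, percent) and CpG observed over expected ratio (right) of 517 footprint-free peaks (red) and 22460 peaks footprinted in both libraries (blue), as the percentage of peaks per bin, with medians dotted. The red medians, 67.3% and 0.788, lie right of the blue ones, 60.5% and 0.657, and the blue group has a second hump at a low CpG ratio.

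Motif matches were fewer than in footprinted peaks as a whole, and the order of single motifs depended on the density of the peaks compared. In the 150 bp window around each midpoint, searched on both strands for 19 motifs, 316 of 517 footprint-free peaks (61.1%) held none, against 39.8% of footprinted peaks and 51.2% of the whole list. All motif shares are of these windows. A window reached past the edges of any peak narrower than 150 bp, which 42.0% of footprint-free and 2.36% of footprinted peaks were. In the sequences printed for Opa3, Cacul1 and Mapt, the SP/KLF match lay wholly outside the peak. The GGGCGGG box of SP/KLF factors was the most frequent, in 20.5% (17.2 to 24.2) of footprint-free peaks against 24.7% of footprinted peaks and 15.9% of all peaks. CCAATC, bound by NFY, was in 3.68% against 12.1% and 8.28%. GCGCNTGCG, bound by NRF1, was in 3.09% against 7.41% and 3.93%, and CCGGAAG, bound by ETS factors, in 4.06% against 8.16% and 4.68%. CTCF matches, by a degenerate pattern, were in 1.93% against 7.34% and 6.94%.

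In the lowest density quartile, 62.8% (57.5 to 67.9) of footprint-free windows held none of the motifs, against 53.7% (52.4 to 55.1) of footprinted windows. There SP/KLF was more frequent in footprint-free windows, in 71 of 323 (interval 17.8% to 26.8%) against 10.8% (9.99 to 11.7). NRF1, at 2.17% against 1.32%, and ETS, at 2.48% against 2.53%, had overlapping intervals. NFY stayed lower, at 2.48% (1.26 to 4.81) against 5.57% (4.97 to 6.23), as did CTCF, at 2.79% (1.47 to 5.21) against 11.4% (10.5 to 12.3).

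Because promoters differ from other peaks in motifs, promoter peaks with a stronger neighbour within 500 bp were also set side by side, 377 footprint-free and 2046 footprinted. The NFY letters were in 3.18% against 9.34%, NRF1 in 3.45% against 7.04%, ETS in 5.04% against 6.99% and SP/KLF in 21.5% against 28.3%. CACGTG, the E-box of USF, was in 6.10% against 6.40%, and CTCF in 1.06% against 2.15%. The neuronal E-box CAGATGG was in 2.12% against 2.00%. Matches of different motifs can share bases, as SP/KLF and EGR sites do. A match is only a run of letters and no match says nothing of a factor.

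Some footprint-free peaks were broad, and 42 exceeded 400 bp. The peak at Nlgn2, a postsynaptic adhesion protein of inhibitory synapses, is chr11:69836805-69837475, 671 bp wide, had densities of 1.33 and 1.15, and lay 644 bp inside the transcript. Its GC content was 65.7%, and its neighbour 594 bp away had a density of 8.67 and 4 footprints. Other wide ones were 724 bp at Glis2, a zinc finger gene, 667 bp at Jph4, a junctophilin, and 654 bp in the noncoding gene Gm47205 near Bcl9l, and these 3 had no listed base in at least 1 of the accessibility tracks described next.

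Not every footprint-free peak was listed as accessible in both runs of processing. The footprint lists belong to a run made from filtered alignments, which also gave a per-base FDR track of the cut rate that lists bases under 0.05, while the peaks come from a second run made from sequencing reads. In 467 of 517 footprint-free peaks both tracks listed bases, and in 50 (9.67%) at least 1 track listed none, 22 of them in both. Of the 22460 peaks footprinted in both libraries, 0 lacked listed bases, but peaks footprinted in 1 library only did: 95 of 386 (24.6%) of those with a replicate 1 footprint and 68 of 643 (10.6%) of those with a replicate 2 footprint, in each case in the track of the other library. No strong shared peak with a footprint in a library lacked listed bases of that same library. Footprints and tracks come from the same run, so the 0 may be set by how footprints were called, which was not tested. By called peaks the gap between footprint-free and footprinted peaks was wider. A peak of the run that gave the footprints overlapped 359 of 517 footprint-free peaks (69.4%, 65.3 to 73.3) in replicate 1 and 401 (77.6%, 73.8 to 80.9) in replicate 2, against 99.3% of peaks footprinted in both libraries in each replicate. Of the 22 peaks, 21 overlapped a footprint in the larger of the 2 position-only footprint lists of replicate 2, against 42 of the 467 (8.99%), and 0 of the 22 overlapped a first-run peak of either replicate in the lists compared. For these peaks the lack of a footprint and the lack of listed bases cannot be told apart.

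The peaks at Pisd and Pisd-ps2 belong here. Pisd encodes the mitochondrial enzyme that makes phosphatidylethanolamine, and Pisd-ps2 is annotated as a related pseudogene. Within 10 kb of these genes lay 3 footprint-free peaks on chromosome 5, of 6 strong shared peaks, and 5 on chromosome 17, of 12. All 3 and 4 of the 5 had no listed base in either track. Their replicate 1 densities lay between 1.97 and 3.20 at Pisd, and between 1.43 and 9.55 at Pisd-ps2. The densest, chr17:3082023-3082190, had 13.1 in replicate 2. Between 18.8% and 65.3% of their 32-mers occur more than once in the assembled chromosomes, and no replicate 1 peak lay within 10 kb of Pisd-ps1 on chromosome 11, where the second sequence printed above lies. Which copy the cleavage came from cannot be told apart.

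Peaks made mostly of repeats were rare. At least 50% of the bases were soft-masked in 8 of 517 footprint-free peaks (1.55%, 0.786 to 3.02), against 0.334% (0.267 to 0.418) of footprinted peaks and 0.953% of the whole list. The 8 included a 21 bp peak at Smarcd3 and a 39 bp peak at Src. At least 50% of 32-mers were repeated in 7 (1.35%, 0.657 to 2.77) against 0.432% (0.354 to 0.527), and the 7 included peaks at Pisd and Pisd-ps2. Any repeated 32-mer was found in 6.58% (4.74 to 9.05) against 9.13% (8.76 to 9.52), with overlapping intervals.

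Distal footprint-free peaks were few, and of the 4 densest that were not at Pisd copies, 3 flanked denser peaks. The 47 bp peak at chr1:86525046-86525092, 1657 bp upstream of the TSS of Ptma, the prothymosin gene, had densities of 2.34 and 1.66, and its neighbour 166 bp away had 15.2. The peak at Irs2, an adaptor of insulin signalling, had 2.25 and 1.53 beside a neighbour of 7.87. One near Tex44 had 2.01 and 1.70 beside 11.4. The peak at Trim2, a ubiquitin ligase gene of neurons, had 1.99 and 1.67 beside a weaker neighbour of 1.02, and neither track listed a base in it.

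Few peaks with listed bases stood alone. Of the 467 peaks with listed bases in both tracks, 395 had a stronger nearest peak within 500 bp, 62 a nearest peak within 500 bp that was not stronger, and 10 no peak within 500 bp. The 10, chosen after their values were seen, included peaks nearest to Cuedc2, Gse1, Gm6410, 1810013L24Rik, Ftl1, Fads1, Rbm15, Ahdc1 and Nlgn2, with replicate 1 densities from 1.33 to 1.94. In 4 of the 10 the larger position-only list had a footprint. Only the peaks in Gse1 and Ahdc1 lay over 1 kb from every footprint of both libraries, and each was among those 4.

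Single genes rarely had several. Nr2f1, the gene of the cortical patterning receptor COUP-TFI, had 4 footprint-free peaks of 6 strong shared peaks in its body and 10 kb upstream, with densities of 1.36 to 1.67 in replicate 1 and 0.674 to 1.28 in replicate 2. None of the 4 had a listed base in the replicate 2 track. Bcl9l, a coactivator of Wnt signalling, had 3 of 13, all without a listed base in either track. Cadm1, a synaptic adhesion gene, had 3 of 6, with densities of 1.56, 1.54 and 1.55, and every base of these was listed in both tracks. Gse1 had 3 of 32. The same 3 peaks are counted for the long gene model Gm20388, which contains Gse1 and spans 162 strong shared peaks.

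By gene, 496 of 20807 autosomal protein-coding genes (2.38%) had a footprint-free peak within 1 kb of a TSS, and 11149 (53.6%) had any strong shared peak there. Only 4 genes (0.0192%) had a footprint-free promoter peak and no footprinted strong shared one: Ampd3, Cpeb4, Naif1 and Nr2f1. The Cpeb4 peak lay 808 bp upstream of the TSS, 296 bp from a peak of density 13.0 with 11 footprints. The Naif1 peak lay nearest to the TSS of Slc25a25, 181 bp from a peak of 10.4 with 10 footprints. The promoter peaks of Nr2f1 had no listed base in the replicate 2 track. The larger position-only list had footprints in them and in the Ampd3 peak. Of 129 autosomal genes in 11 lists of cell type, housekeeping and activity genes, 2 (1.55%) had a footprint-free promoter peak, against 2.38% of all coding genes. Both were immediate early genes, of 15 in that list, whose members are transcribed within minutes of neuronal activity. At Egr1 the peak was 80 bp wide, had densities of 1.67 and 1.15, and lay in the coding exon 407 bp inside the transcript, beside a peak of 9.05 with 25 footprints. At Jun it was 397 bp wide, had 1.35 and 0.927, and lay 610 bp inside the transcript. The other 10 lists, among them 12 housekeeping genes that all had a strong shared promoter peak, had none.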

How the data were processed

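The 2 libraries were analysed from interval lists that the authors made per library on mm10, not on pooled samples. Per the text deposited with each sample, the peaks and hotspots used here were made from sequencing reads, and the footprints and per-base FDR tracks from filtered alignments. No aligner, caller, version or threshold is given in the sources used here. Peak density is a signal deposited by the authors in whole steps, whose size differed between the libraries. Hotspots carry the highest −log10 FDR, per the file headers. The footprint lists carry 0.01 in each line of the p-value column deposited by the authors, a threshold and not a value per footprint, and the FDR tracks deposited hold bases under 0.05. Footprint lists of positions only, deposited for replicate 2, served as an alternative. The mice were an F1 cross and the reference is C57BL/6J, and any bias between alleles was not examined.

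Overlap meant at least 1 bp. Features came from GRCm38.p6 and GENCODE vM21: GC content, CpG ratio, soft-masked bases, copies of 32-mers and the nearest TSS by midpoint. Promoters reached 1 kb to each side of a TSS. Shares carry 95% Wilson intervals and medians 95% order-statistic intervals. No test between groups of peaks was run. Named peaks were the 10 densest, the 5 widest, the 10 densest within 1 kb of a coding TSS, the 10 densest over 1 kb from any TSS, 3 on each side of the threshold and the 5 genes with the most members; other peaks were picked with their values in view. The members and lists were chosen with earlier results of these data known. The overlap routine was tested on simulated data. Python 3.11.15, numpy 2.4.6, pandas 2.3.3, scipy 1.17.1, numba and matplotlib 3.10.9 were used. Sequences on chromosome 18 are not printed, and a few named peaks were left out of the text.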

Additional observations from a re-analysis of the deposited data

Results flagged for a closer look

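The larger position-only footprint list of replicate 2, which the rule did not use, had a footprint in 85 of the 517 footprint-free peaks (16.4%, 13.5 to 19.9). It is given here because it comes from a list outside the rule. Any count over 3 of 517 would have been above the 0.580% that a count of 0 allows, so this says nothing on whether the share is high for a list of that length, which was not tested. Peaks footprinted in both libraries overlapped that list in 99.7%. Of the 85, 43 were among the 50 peaks without a listed base in at least 1 FDR track. The smaller position-only list reached 40 footprint-free peaks (7.74%), all of them among the 85. The cause was not tested.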

How the results depend on the processing

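Of 71 recalculated values, 29 stayed inside the interval of the reported value, or within 1.5 times of it for the number of peaks, and 42 did not. The reported values are 517 peaks, a 2.15% share, 88.6% at promoters, a median GC content of 67.3%, a median width of 179 bp and 1.55% with at least 50% of bases soft-masked. From replicate 2 lists alone and from replicate 1 lists alone, the rule gave 1040 and 1376 peaks, shares of 3.84% and 5.55%, 76.9% and 82.6% at promoters, GC medians of 61.9% and 65.1%, and widths of 239 and 206.5 bp. With the density minimum at the upper quartile, 53 peaks remained (0.431%), with a GC median of 63.0%, a width of 68.0 bp and 3.77% soft-masked. With the minimum in both libraries the share was 1.78% and the GC median 66.1%. With 50% reciprocal overlap there were 340 peaks (1.49%), 246 bp wide, 0.588% soft-masked. Barring footprints within 50 bp gave 1.67%, 229.5 bp and 0.746%, and counting only footprints wholly inside gave 2.47% and 152.5 bp. Adding the position-only lists gave 1.80%, 155 bp and 92.8% at promoters. Promoter windows of 500 and 2500 bp gave 72.9% and 93.8%, coding TSSs alone 85.3%, and a soft-masked minimum of 10% gave 19.9%. Chosen after seeing the data: peaks of at least 150 bp numbered 300 (1.31%, 272 bp, 0.667% soft-masked), peaks listed in both FDR tracks gave 1.96% and 92.1% at promoters, and peaks touching no other gave 1.93%, 214 bp and 91.1%. The promoter share stayed between 72.9% and 93.8% in all of these. The causes were not tested. No paired analysis was possible because there is 1 group and the result comes from no test. Absolute depth is not given, so no limit on footprint detection follows from it.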

Other observations

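Peaks with a footprint in 1 library only lay between the other groups in some measures, and near or beyond footprint-free peaks in others. The 386 with a footprint in replicate 1 only and the 643 with one in replicate 2 only were narrower than 150 bp in 26.9% and 26.9%, against 42.0% of footprint-free peaks and 2.36% of peaks footprinted in both. A stronger nearest peak within 500 bp was found for 55.4% and 64.5%, against 79.7% and 11.0%. Promoters held 68.7% and 76.7%, against 88.6% and 62.1%. Another peak was touched by 35.5% (30.9 to 40.4) and 23.0% (19.9 to 26.4), against 22.1% (18.7 to 25.8) and 12.3%. Their median distance to the nearest peak was 116.5 (89 to 134) and 151 bp (133 to 166), against 157 (145 to 164) and 1947 bp. Introns held 41.5% (36.6 to 46.4) and 44.2% (40.4 to 48.0) of their midpoints, against 40.2% (36.1 to 44.5) and 31.2%. Of these intervals, only those of the replicate 1 group for touching and distance did not overlap the footprint-free ones.

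By chromosome, the footprint-free share of strong shared peaks ran from 1.52% on chromosome 15 to 3.12% on chromosome 19, with intervals that overlapped between these (0.935 to 2.45 and 2.12 to 4.57).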
